A study of Danio rerio with 58 samples.

Results

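The her4 genes of the zebrafish form a cluster of neighbouring copies that code for repressors of the Hairy/Enhancer of split family. The 5 members followed here are her4.1 (ENSDARG00000056732), her4.2 (ENSDARG00000094426), her4.3 (ENSDARG00000070770), her4.4 (ENSDARG00000009822) and her4.5 (ENSDARG00000056729, which is also listed under the symbol her4.2), chosen by their identifiers among 32057 genes. RNA came from pools of whole embryos or larvae of the AB background, at 24, 48 and 96 h post fertilisation (hpf), and each pool made 1 of the 58 samples. Exposed animals received continuous gamma radiation from a caesium source, starting at an early cleavage stage, at 0.5, 5 or 50 mGy/h, and controls were kept without it. All groups share the AB background, and the labels name no mutation or transgene.

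Irradiation was done in 3 batches, which the labels call I10, I17 and I32. In batch I32, 6 pools exposed to 0.5 mGy/h and 6 control pools were collected at 24 hpf. In batch I10, each stage had 3 pools at 0.5 mGy/h, beside 2 control pools at 24 hpf and 4 at each of the later stages. In batch I17, each stage had 3 control pools, 3 pools at 5 mGy/h and 3 pools at 50 mGy/h, so both dose rates share controls. No batch held 0.5 mGy/h together with a higher dose rate, so a batch effect and the step between these dose rates cannot be told apart. The study set aside 7 pools after hierarchical clustering (at 24 hpf in batch I32 3 exposed pools, replicates 1, 4 and 5, and control replicate 4; at 48 hpf the 5 mGy/h replicate 8; at 96 hpf the 50 mGy/h replicate 9, and in batch I10 the control replicate 12). The pool removed at 5 or 50 mGy/h at 96 hpf could be read from that clustering with some doubt only. Under the other reading, with the 5 mGy/h replicate 9 removed, no member passed in the 96 hpf comparisons with controls. Another 5, the 24 hpf pools of batch I10, are shown in neither clustering, and were compared here on their own. Tests used the other pools, and the values of the removed ones are given beside them. The p-values refer to the spread between pools, and no label says that the pools of a batch were irradiated separately. The study pooled clutches, and describes 3 dishes per condition as technical replicates and independent repeats of the irradiation as biological ones. Its supplement calls the RNA pools biological replicates. A comparison within 1 batch therefore has p-values that do not measure the spread between independent irradiations.

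Notch signalling works between neighbouring cells: a Delta or Jagged ligand on 1 cell triggers cleavage of the Notch receptor on the next, and the released fragment enters the nucleus and switches on her genes. Their products repress proneural genes, which keeps the receiving cell a progenitor while its neighbour becomes a neuron. In the zebrafish embryo her4 is a widely used readout of Notch activity in the neural plate, the neural tube and radial glia.

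In the RefSeq gene table (assembly GRCz12tu) the members follow each other on chromosome 23 in the order her4.2, her4.1, her4.3, her4.4 and her4.5, with her12 on 1 side and a long non-coding RNA on the other, and her4.1 lies inside the span of her4.2. The deposited counts use the older assembly GRCz11, so no coordinates are given. The members are close copies, and reads that map to more than 1 place were not counted (between 14.9% and 25.5% of read pairs per sample), so the split of reads between members is uncertain and their levels are not compared with each other. The highest shares were in kept 5 mGy/h pools of batch I17, replicate 9 at 96 hpf (25.5%) and replicate 5 at 48 hpf (21.8%). All other pools were at or under 17.55%. Both pools enter the 5 mGy/h comparisons of their stages, and the part of their mapping in the her4 values was not tested. Levels are given as CPM, the reads of a gene relative to the library total, after scaling all 58 samples together. Pools had between 28278920 and 49971607 counts on genes. Counts per pool ranged between 10 and 454 for her4.1, 8 and 925 for her4.2, 0 and 48 for her4.3, 15 and 424 for her4.4, and 4 and 521 for her4.5, so her4.3 is measured least precisely.

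**Figure D1:**
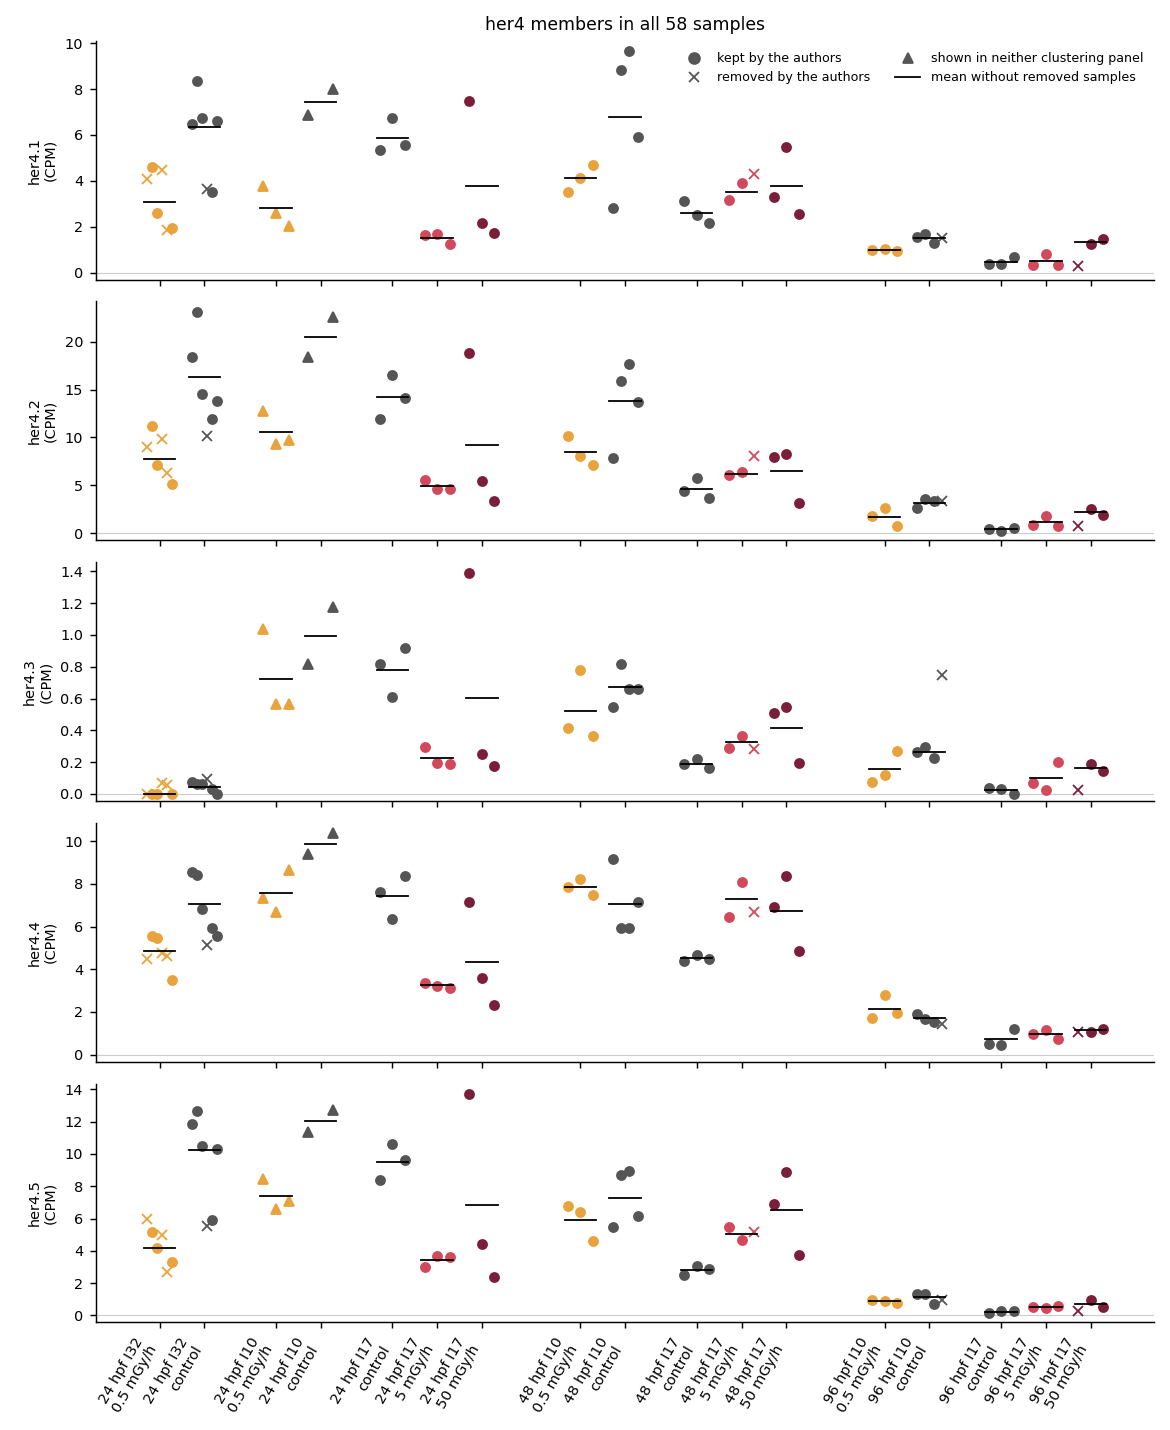
CPM of the 5 her4 members (rows) in all 58 pools, by stage, batch and dose rate; circles are kept pools, crosses are pools removed by the authors, triangles are pools shown in neither clustering, and lines are means without removed pools. At 24 hpf most exposed pools lie below their controls, and replicate 1 of 50 mGy/h (her4.5 at 13.7 CPM) lies above the controls of its batch for every member except her4.4.

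In 24 hpf embryos exposed to 0.5 mGy/h, 1 member passed the test, her4.5, which was lower in batch I32. A gene was called when its fold change was at least 1.5 and its adjusted p under 0.01, with edgeR's quasi-likelihood test and Benjamini-Hochberg adjustment over all genes tested. In whole embryos a lower level can mean fewer her4 cells or less her4 RNA per cell, and these cannot be told apart. Of all genes tested in batch I32, 0.0641% were called lower, and her4.5 ranked at 12 of 18721 by p. her4.5 had 5.14, 4.16 and 3.29 CPM in the kept exposed embryos (replicates 2, 3 and 6), against 11.9, 12.7, 10.5, 5.92 and 10.3 CPM in the kept controls (replicates 1, 2, 3, 5 and 6). All exposed pools were below all controls, as for 5.44% of all genes tested, and control replicate 5 was the nearest to them. The difference was 2.43-fold (log2 fold change -1.28 ± 0.20, SE, adjusted p = 0.00872 in edgeR).

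her4.2 had 11.2, 7.12 and 5.11 CPM in the same exposed embryos, against 18.4, 23.1, 14.6, 11.9 and 13.8 CPM in controls. These groups did not overlap either, with a log2 fold change of -1.06 ± 0.22 that missed the limit (adjusted p = 0.0262 in edgeR). her4.1 had 4.61, 2.61 and 1.96 CPM in exposed embryos and 6.47, 8.34, 6.74, 3.53 and 6.59 CPM in controls, so exposed replicate 2 lay above control replicate 5. Its log2 fold change was -1.05 ± 0.25 (adjusted p = 0.0572 in edgeR). her4.4 differed least, with 5.55, 5.45 and 3.51 CPM in exposed embryos against 8.55, 8.40, 6.83, 5.92 and 5.57 CPM in controls. Its groups were apart by a small gap only, and its log2 fold change was -0.54 ± 0.18 (adjusted p = 0.160 in edgeR). her4.3 had too few counts in batch I32 to be tested.

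The call of her4.5 in batch I32 rests on few pools. In the removed pools her4.5 had 5.97, 4.99 and 2.71 CPM in exposed replicates 1, 4 and 5, against 5.53 CPM in control replicate 4, so that control lay among the exposed pools and exposed replicate 1 lay above control replicate 5. With all 12 pools no member passed, and her4.5 had a log2 fold change of -1.10 ± 0.22 (adjusted p = 0.228 in edgeR; 1 gene called in all). The call was also lost on leaving out any of the 3 exposed replicates or control replicate 1, 3 or 6, and over all left-out pools the log2 fold change of her4.5 lay between -1.45 and -1.13. Without control replicate 2, her4.2 passed as well as her4.5. Over all left-out pools, 0 to 56 genes were called in all.

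The 24 hpf pools of batch I10 gave values on the same side for every member. her4.1 had 3.78, 2.60 and 2.05 CPM at 0.5 mGy/h (replicates 1, 2 and 4), against 6.88 and 8.0 CPM in controls (replicates 2 and 3). her4.2 had 12.8, 9.28 and 9.74 CPM at 0.5 mGy/h, against 18.4 and 22.6 CPM in controls. her4.5 had 8.47, 6.59 and 7.09 CPM at 0.5 mGy/h, against 11.4 and 12.7 CPM in controls. Exposed pools lay below both controls for these 3 members and for her4.4 (6.68 to 8.64 CPM against 9.38 and 10.4 CPM), as for 14.7% of all genes tested, while her4.3 overlapped (0.564 to 1.03 CPM against 0.816 and 1.17 CPM). None passed the test in edgeR, and 0.0104% of all genes did. The log2 fold changes were -1.39 ± 0.24 for her4.1, -0.94 ± 0.17 for her4.2, -0.69 ± 0.16 for her4.5, -0.44 ± 0.39 for her4.3 and -0.37 ± 0.16 for her4.4 (adjusted p between 0.255 and 0.677 in edgeR). By unadjusted p, 4 of the 5 members were under 0.05, as were 10.3% of all genes, and her4.1 and her4.2 ranked at 6 and 9 of 19180 genes. DESeq2 called both among 13 genes, as did edgeR without exposed replicate 1, among 23 genes.

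With the kept pools of batch I32 and the pools of batch I10 in a fit with the batch as a term, her4.1, her4.2 and her4.5 were called lower, among 38 genes. In that fit the log2 fold change was -1.2 ± 0.20 for her4.1 (adjusted p = 0.00756 in edgeR), -1.02 ± 0.17 for her4.2 (adjusted p = 0.00594 in edgeR) and -1.05 ± 0.16 for her4.5 (adjusted p = 0.00492 in edgeR). her4.4 did not pass, at -0.48 ± 0.13 (adjusted p = 0.0610 in edgeR).

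**Figure D2:**
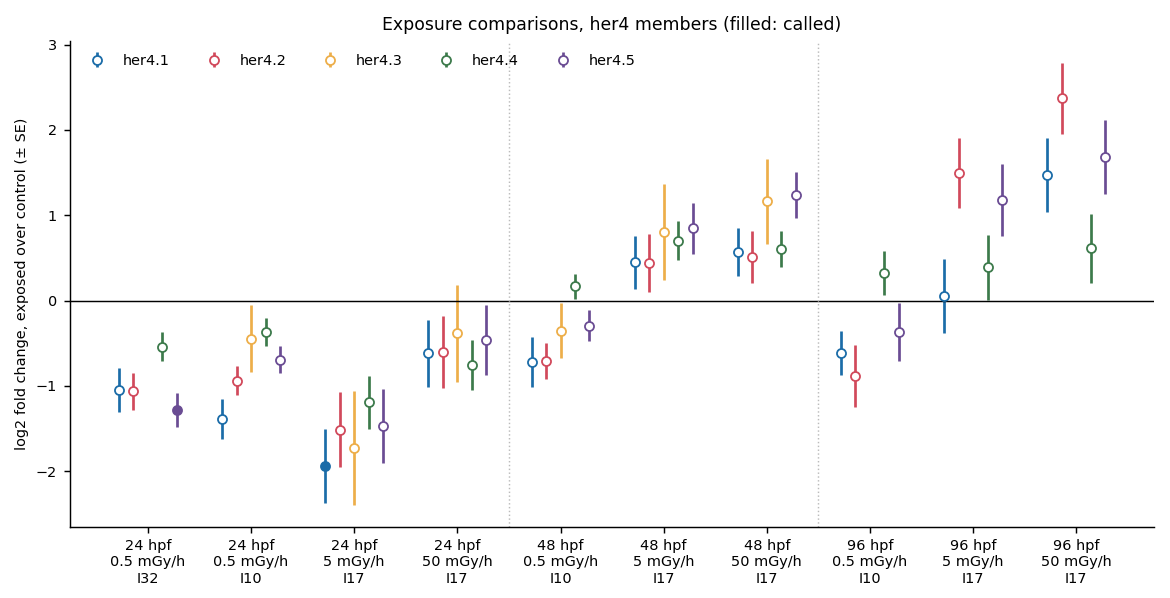
log2 fold change (exposed over control, bars ± SE) of each tested her4 member in the 10 comparisons of exposed pools with controls; filled points were called. All points at 24 hpf lie below 0, those at 5 and 50 mGy/h at 48 and 96 hpf lie above 0, and only her4.5 at 0.5 mGy/h in batch I32 (-1.28) and her4.1 at 5 mGy/h (-1.94), both at 24 hpf, were called.

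At 5 mGy/h every member was lower in all 3 exposed pools than in all 3 controls at 24 hpf, and 1 member, her4.1, passed the test. Such a gap below the controls was found for 25.7% of all genes tested. her4.1 had 1.64, 1.67 and 1.24 CPM at 5 mGy/h (replicates 1, 2 and 4), against 5.35, 6.76 and 5.55 CPM in controls (replicates 1, 3 and 4). The exposed pools lay close together and far below the controls, and the level was 3.84-fold lower (log2 fold change -1.94 ± 0.43, adjusted p = 0.00631 in edgeR). Of all genes tested, 3.21% were called lower here. her4.2 had 5.59, 4.61 and 4.61 CPM at 5 mGy/h, against 11.9, 16.6 and 14.1 CPM in controls. her4.5 had 3.02, 3.67 and 3.61 CPM at 5 mGy/h, against 8.38, 10.6 and 9.60 CPM in controls. Both had exposed pools that differed little from each other and controls that were well above them. The log2 fold change was -1.51 ± 0.44 for her4.2 (adjusted p = 0.0210 in edgeR) and -1.47 ± 0.44 for her4.5 (adjusted p = 0.0238 in edgeR).

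her4.4 had 3.35, 3.23 and 3.14 CPM at 5 mGy/h, against 7.63, 6.36 and 8.37 CPM in controls, a log2 fold change of -1.19 ± 0.31 (adjusted p = 0.0126 in edgeR). her4.3 had 0.296, 0.196 and 0.190 CPM at 5 mGy/h, against 0.816, 0.611 and 0.917 CPM in controls, and a log2 fold change of -1.73 ± 0.66 (adjusted p = 0.0678 in edgeR). For these as for the other members the groups were apart, and the fit takes its spread from the 50 mGy/h pools as well, of which 1 stood apart.

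That pool is replicate 1 of 50 mGy/h. Without it, in a fit chosen after seeing the data, all 5 members were called lower at 5 mGy/h, with the same log2 fold changes to within 0.01 and SE between 0.19 and 0.44 (adjusted p between 7.34e-05 and 0.00796 in edgeR; 3115 genes called in all). A fit of the 5 mGy/h and control pools alone also called all 5, and its number of genes called in all is not given here. Leaving out any of the 3 pools at 5 mGy/h or of the 3 controls, with the 50 mGy/h pools kept, left no member called (her4.1 between -2.05 and -1.80 over the left-out pools, highest adjusted p = 0.0365 in edgeR). The number of genes called in all moved as well, between 196 and 3115 over all left-out pools. With every pool kept, 1815 genes other than her4 members were called.

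At 50 mGy/h no member passed the test at 24 hpf, while 5.88% of all genes did, and 1 of the 5 members had an unadjusted p under 0.05, against 34.7% of all genes. DESeq2 called none either. her4.1 had 7.48, 2.15 and 1.73 CPM at 50 mGy/h (replicates 1, 3 and 4), against 5.35, 6.76 and 5.55 CPM in controls. her4.2 had 18.8, 5.48 and 3.39 CPM at 50 mGy/h, against 11.9, 16.6 and 14.1 CPM in controls. her4.5 had 13.7, 4.4 and 2.39 CPM at 50 mGy/h, against 8.38, 10.6 and 9.60 CPM in controls. For each of these, replicate 1 was above every control and replicates 3 and 4 were below every control. her4.3 was arranged in the same way (1.39, 0.253 and 0.173 CPM at 50 mGy/h, against 0.816, 0.611 and 0.917 CPM in controls). her4.4 in replicate 1 lay within the controls (7.17, 3.58 and 2.32 CPM at 50 mGy/h, against 7.63, 6.36 and 8.37 CPM in controls). The log2 fold changes over all 3 pools were between -0.76 ± 0.30 for her4.4 and -0.39 ± 0.57 for her4.3 (adjusted p between 0.0861 and 0.664 in edgeR).

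Without replicate 1, 4 members were called lower at 50 mGy/h, among 1393 genes. The log2 fold change was then -1.57 ± 0.23 for her4.1, -1.65 ± 0.22 for her4.2, -1.31 ± 0.22 for her4.4 and -1.46 ± 0.24 for her4.5 (adjusted p between 0.000391 and 0.00132 in edgeR). her4.3 did not pass, at -1.84 ± 0.49 (adjusted p = 0.0170 in edgeR).

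The place of replicate 1 over other genes was also described. Over the 1815 genes other than her4 members that were called at 5 mGy/h, each pool was placed on a scale on which the control mean is 0% and the 5 mGy/h mean is 100%. These genes were chosen by the difference between these same controls and 5 mGy/h pools, which fixes the gap between them. The 50 mGy/h pools share the controls and the fit, so only their places relative to each other are compared. Controls lay at -17.6%, 19.1% and -1.53%, the 5 mGy/h pools at 85.6%, 106% and 108%, and the 50 mGy/h pools at 77.7% (replicate 1), 76.2% (replicate 3) and 102% (replicate 4). Replicate 1 was thus beside replicate 3 on this scale, while its summed her4 level was 48.5 CPM against 15.9 CPM in replicate 3. Its total of 32155282 counts on genes and its 16.4% of multiply mapping pairs were within the range of the other pools. Its summed level of the 4 Notch receptors, 618 CPM, was below the other 50 mGy/h pools (977 and 1032 CPM) and below the 5 mGy/h pools (990 to 1157 CPM) and controls (1150 to 1247 CPM). Whether these differences bear on its her4 level was not tested.

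**Figure D3:**
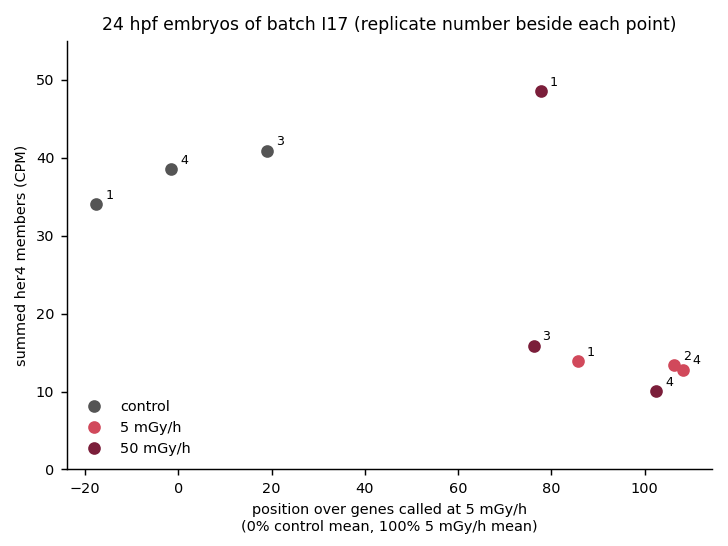
Summed CPM of the 5 her4 members (vertical) against the position of each 24 hpf pool of batch I17 over 1815 genes called at 5 mGy/h (horizontal, 0% control mean, 100% 5 mGy/h mean), with replicate numbers. Replicate 1 of 50 mGy/h is at 77.7% with 48.5 CPM, above the 3 controls (34.1 to 40.9 CPM), while the other exposed pools are between 10 and 15.9 CPM.

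The other genes of the Notch pathway at 24 hpf were examined in lists. Among 9 Delta and Jagged ligands, 3 (5 mGy/h) and 4 (50 mGy/h) were called lower and none higher, and the median log2 fold changes were -0.49 and -0.66 (-0.06 and -0.02 over all genes tested). dla, a Delta ligand of neural progenitors and new neurons, had 126 ± 7.47 CPM at 5 mGy/h against 207 ± 8.59 CPM in controls (SD, n = 3 each), and was 0.71 ± 0.14 lower on the log2 scale (SE, adjusted p = 0.00405 in edgeR). dlc, a ligand of the somite clock as well as of the nervous system, was 1.21 ± 0.18 lower on the same scale (adjusted p = 7.78e-04 in edgeR). None of the 4 Notch receptors was called at either dose rate. Of 11 genes for the nuclear partner, receptor cleavage and ligand handling, 1 was called higher at both dose rates, psen2, a catalytic subunit of the γ-secretase that cleaves the receptor (log2 fold change 1.0 ± 0.17 at 5 mGy/h, adjusted p = 0.00179 in edgeR). At 5 mGy/h 2 of these 11 were called lower.

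Other her and hey repressors were split between both directions at 24 hpf. Of 18 tested, 4 were called higher and 2 lower at 5 mGy/h, and 3 higher and 1 lower at 50 mGy/h, and the list's medians were -0.09 and 0.11. Those called higher at both dose rates include her1 and her7, cyclic genes of the somite clock (log2 fold changes of 2.93 ± 0.30 and 2.82 ± 0.38 at 5 mGy/h). her12, the neighbour of her4.2, had 58.4 ± 4.57 CPM at 5 mGy/h against 67.6 ± 3.85 CPM in controls (SD, n = 3 each), a log2 fold change of -0.21 ± 0.17 (SE, adjusted p = 0.377 in edgeR). her15.2, another Notch-responsive gene of neural progenitors, missed the limit (-0.84 ± 0.22, adjusted p = 0.0144 in edgeR). HES6 (ENSDARG00000007097), which is also in the list of the somite clock, was called lower at both dose rates. It had 6.62 ± 1.35 CPM at 5 mGy/h against 21.6 ± 4.68 CPM in controls (SD, n = 3 each), and the log2 fold change was -1.39 ± 0.23 at 50 mGy/h (adjusted p = 0.00175 in edgeR). Another gene under the symbol HES6 was more abundant, with 69.6, 105 and 83.3 CPM in controls. It had 82.6, 109 and 112 CPM at 5 mGy/h and 88.5, 86.8 and 98.2 CPM at 50 mGy/h, so its exposed pools overlapped with controls. At 50 mGy/h, replicate 1 was the highest of the 3 exposed pools for her2 (38.3 CPM, against 25.0 and 17.2 CPM in the others), her12 (77.2 CPM, against 52.1 and 55.5 CPM) and her15.2 (16.4 CPM, against 14.8 and 7.48 CPM). For her2 and her12 it was also above every control, and for her15.2 it was below every control.

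Markers of neural cells were examined as well. Of 21 neuron markers tested, 7 (5 mGy/h) and 3 (50 mGy/h) were called lower, the median log2 fold changes were -0.39 and -0.45, and elavl3, an RNA-binding protein of new neurons, was called at both (-0.94 ± 0.18 at 5 mGy/h). Of 17 neural progenitor markers tested, 3 and 1 were called lower, with medians of -0.09 and -0.16, and fabp7a, a fatty acid binding protein of radial glia, was among them at both dose rates. In each comparison 11 of the 17 were on the lower side and 6 on the higher side. The progenitor markers summed to 3051 to 3397 CPM in controls, 3354 to 3827 CPM at 5 mGy/h and 3316 to 3565 CPM at 50 mGy/h. The neuron markers summed to 961 to 1058 CPM in controls, 806 to 905 CPM at 5 mGy/h and 792 to 892 CPM at 50 mGy/h. Genes of the somite clock and presomitic mesoderm, which are high in younger embryos, were higher by a median of 1.97 (5 mGy/h) and 2.16 (50 mGy/h) on the log2 scale, with 8 of 13 tested called higher and 2 lower in each. Of 13 proliferation genes, 3 (5 mGy/h) and 0 (50 mGy/h) were called higher, 11 were on the higher side in both comparisons, and they summed to 4185 to 5898 CPM in controls, 7267 to 7961 CPM at 5 mGy/h and 6098 to 8030 CPM at 50 mGy/h. Of 11 proneural genes, 1 (5 mGy/h) and 0 (50 mGy/h) were called lower, 9 and 10 were on the lower side, and their medians were -0.33 and -0.36. The part of cell composition or of developmental timing in the her4 values was not tested. At 0.5 mGy/h no gene of any of the 9 lists was called in batch I32 or in batch I10. Over all genes, 0.0641% were called lower in batch I32 and 0.0104% were called in batch I10. With so few calls, their absence from these lists is near the share over all genes and does not set her4.5 apart from the lists. In batch I10, 13 of 14 genes of the somite clock list were nonetheless on the lower side at 0.5 mGy/h (median log2 fold change -0.66), while in batch I32 10 of 14 were on the higher side (median 0.18), and the part of this in the her4 values was not tested.

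At 48 hpf the her4 members of batch I17 lay on the other side of their controls. All 5 members were called lower in these controls than in 48 hpf controls of batch I10, as were 9.09% of all genes tested. The summed level averaged 14.8 CPM in these controls, 22.4 CPM at 5 mGy/h, 23.9 CPM at 50 mGy/h and 35.6 CPM in controls of batch I10. At 5 mGy/h (replicates 5 and 7) all 5 members were above all controls, as were 17.1% of all genes tested, yet none passed the test, and 0.157% of all genes did. her4.5 had 5.49 and 4.64 CPM at 5 mGy/h, against 2.48, 3.09 and 2.88 CPM in controls (replicates 5, 7 and 8), a log2 fold change of 0.85 ± 0.30 (adjusted p = 0.172 in edgeR). her4.4 had 6.46 and 8.09 CPM at 5 mGy/h, against 4.38, 4.67 and 4.49 CPM in controls, a log2 fold change of 0.70 ± 0.23 (adjusted p = 0.140 in edgeR). The gap to the controls was wide for both. her4.1, her4.2 and her4.3 had log2 fold changes of 0.45 ± 0.31, 0.44 ± 0.34 and 0.81 ± 0.56 (adjusted p between 0.536 and 0.600 in edgeR). The removed replicate 8 of 5 mGy/h, with a summed her4 level of 24.6 CPM, was also above the controls (13.4 to 16.3 CPM). By unadjusted p, 2 of the 5 were under 0.05, as were 16.4% of all genes, and DESeq2 called none.

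At 50 mGy/h no member passed at 48 hpf, against 1.53% of all genes. her4.5 came nearest, with 6.90, 8.90 and 3.72 CPM (replicates 5, 6 and 8), against 2.48, 3.09 and 2.88 CPM in controls, and a log2 fold change of 1.24 ± 0.27 (adjusted p = 0.0201 in edgeR). Replicates 5 and 6 were high and replicate 8 was just above the controls. Replicate 8 was the lowest exposed pool for every member, and her4.2 in it (3.13 CPM, against 7.96 and 8.33 CPM in the other exposed pools) was below all controls (3.68 to 5.78 CPM). her4.4 was above its controls in all 3 pools (6.93, 8.38 and 4.84 CPM at 50 mGy/h, against 4.38, 4.67 and 4.49 CPM in controls; 0.60 ± 0.21, adjusted p = 0.0936 in edgeR). Like her4.4 and her4.5, 10.7% of all genes tested had all exposed pools above all controls. her4.1, her4.2 and her4.3 overlapped with their controls, with log2 fold changes between 0.51 and 1.16. Without replicate 8, 3 members were called higher, among 1813 genes called in all (302 with it). With the 3 pools DESeq2 called 1 member, among 1275 genes. By unadjusted p, 3 of the 5 were under 0.05, as were 24.9% of all genes.

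The other lists at 48 hpf in batch I17 showed 22 of 22 neuron markers on the lower side and 13 of 13 proliferation genes on the higher side at both dose rates. Few passed: 0 and 3 neuron markers were called lower at 5 and 50 mGy/h, and no proliferation gene. The neuron markers summed to 2423 to 2554 CPM in controls, 1749 and 1756 CPM at 5 mGy/h, and 1371 to 1872 CPM at 50 mGy/h. her2 and her15.1, other her genes of the neural tube, were called higher at 50 mGy/h (log2 fold changes of 1.66 ± 0.24 and 0.72 ± 0.13, adjusted p = 0.00411 and 0.00890 in edgeR). Batch I10 at 0.5 mGy/h also had 22 of 22 neuron markers lower and 13 of 13 proliferation genes higher, none of them called. Their median log2 fold changes were -0.33 and 0.18, and 4 of the 5 her4 members were on the lower side there. What these lists contribute to the her4 values was not tested.

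At 0.5 mGy/h and 48 hpf, in batch I10, no member passed, against 0.0505% of all genes. her4.2 had 10.1, 8.11 and 7.13 CPM at 0.5 mGy/h, against 7.90, 15.9, 17.7 and 13.7 CPM in controls (replicates 5, 6, 7 and 8), and her4.1 had 3.51, 4.13 and 4.69 CPM, against 2.81, 8.83, 9.64 and 5.91 CPM. Control replicate 5 was the lowest control for both and overlapped with the exposed larvae, while the other 3 controls were above them. The log2 fold changes were -0.71 ± 0.21 for her4.2 and -0.72 ± 0.30 for her4.1 (adjusted p = 0.0856 and 0.191 in edgeR). her4.3, her4.4 and her4.5 had -0.36 ± 0.32, 0.17 ± 0.15 and -0.30 ± 0.18. Without control replicate 5, her4.1 and her4.2 were called lower, among 345 genes called in all (10 with it). DESeq2 called none with all pools, and by unadjusted p 2 of the 5 members were under 0.05, as were 20.1% of all genes.

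At 96 hpf her4 was low in every pool (summed level between 1.38 and 8.57 CPM), and no member passed in any comparison with controls. At 50 mGy/h (replicates 10 and 11) her4.2 had 2.49 and 1.88 CPM, against 0.485, 0.246 and 0.537 CPM in controls (replicates 9, 10 and 11), which was 5.17-fold higher (log2 fold change 2.37 ± 0.42, adjusted p = 0.0139 in edgeR). Both exposed pools were well above all controls, as for 24.1% of all genes tested, and 0.162% of all genes were called. her4.1 had 1.24 and 1.45 CPM at 50 mGy/h, against 0.381, 0.368 and 0.684 CPM in controls (1.47 ± 0.44, adjusted p = 0.0568 in edgeR). her4.5 had 0.920 and 0.541 CPM at 50 mGy/h, against 0.139, 0.276 and 0.269 CPM in controls (1.68 ± 0.43, adjusted p = 0.0380 in edgeR). For both the groups were apart, while her4.4 overlapped (1.04 and 1.22 CPM against 0.520, 0.460 and 1.2 CPM). her4.3 had 11 and 5 counts in the exposed pools, against 1, 1 and 0 counts in controls, and was not tested. In the removed replicate 9 of 50 mGy/h her4.2, at 0.721 CPM, was above every control, but the summed level of 2.30 CPM was within that of controls (1.38 to 2.69 CPM), against 5.88 and 5.24 CPM in the other exposed pools. By unadjusted p, 3 of 4 tested members were under 0.05, as were 29.1% of all genes, and DESeq2 called 1, among 1137 genes.

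At 5 mGy/h and 96 hpf her4.2 had 0.908, 1.83 and 0.786 CPM, against 0.485, 0.246 and 0.537 CPM in controls, and her4.5 had 0.538, 0.459 and 0.582 CPM, against 0.139, 0.276 and 0.269 CPM. Both were above all their controls, as were 9.97% of all genes tested, without passing the test (1.5 ± 0.41 and 1.18 ± 0.42, adjusted p = 0.0980 and 0.159 in edgeR), and 0.275% of all genes passed. her4.1 and her4.4 overlapped with controls (0.06 ± 0.44 and 0.39 ± 0.38). By unadjusted p, 2 of 4 tested members were under 0.05, as were 21.3% of all genes, and DESeq2 called none. At 0.5 mGy/h in batch I10, her4.1 had 0.981, 1.03 and 0.944 CPM, against 1.56, 1.67 and 1.30 CPM in controls (-0.61 ± 0.26, adjusted p = 0.232 in edgeR). her4.2 had 1.81, 2.63 and 0.809 CPM at 0.5 mGy/h, against 2.64, 3.61 and 3.38 CPM in controls (-0.88 ± 0.36, adjusted p = 0.229 in edgeR). The exposed pools lay below the controls for these, as for 12.3% of all genes tested, and overlapped for her4.4 (0.32 ± 0.26) and her4.5 (-0.37 ± 0.34). No gene at all was called in that comparison (0%), by unadjusted p 2 of 4 tested members and 20.8% of all genes were under 0.05, and no member was called by DESeq2.

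No member differed between 50 and 5 mGy/h by the test at any stage, with 0%, 0% and 0.0589% of all genes called at 24, 48 and 96 hpf. By unadjusted p, 2, 0 and 2 members were under 0.05 at these stages, as were 6.24%, 3.11% and 3.75% of all genes, and DESeq2 called none. At 24 hpf the log2 differences (50 over 5 mGy/h) were between 0.44 ± 0.31 for her4.4 and 1.34 ± 0.69 for her4.3. Without replicate 1 of 50 mGy/h those of her4.2, her4.3 and her4.4 changed sign, to -0.15, -0.11 and -0.13. At 48 hpf they were between -0.10 and 0.39. At 96 hpf her4.1 differed most (1.42 ± 0.43, adjusted p = 0.997 in edgeR), with 1.24 and 1.45 CPM at 50 mGy/h against 0.336, 0.803 and 0.320 CPM at 5 mGy/h.

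Whether the effect of exposure differed between stages in batch I17 was tested as an interaction, the log2 fold change at the later stage minus that at 24 hpf. A call here means that the fold changes differ, not that the direction turned. For her4.2 the difference between 96 and 24 hpf was 2.98 ± 0.71 at 5 mGy/h (adjusted p = 0.00456 in edgeR) and 2.95 ± 0.71 at 50 mGy/h (adjusted p = 0.00557 in edgeR), and both were called. Over all genes, 4.63% and 3.47% were called in that direction in these comparisons. The 96 hpf controls of batch I17 had only 14, 8 and 22 counts of her4.2. They averaged 0.423 CPM, against 3.21 CPM in 96 hpf controls of batch I10. The other members had positive differences as well, between 1.54 ± 0.48 and 3.79 ± 1.32 at 5 mGy/h and between 1.33 ± 0.49 and 3.25 ± 1.24 at 50 mGy/h, and did not pass (her4.3, at the upper end of both ranges, had 0 to 11 counts at 96 hpf). Between 48 and 24 hpf no member passed, with differences between 1.89 ± 0.44 and 2.53 ± 0.96 at 5 mGy/h and between 1.12 ± 0.57 and 1.70 ± 0.53 at 50 mGy/h, while 0.419% and 0.782% of all genes passed in that direction. At 5 mGy/h the lowest adjusted p of a member in that test was 0.0189 in edgeR, for her4.4. By unadjusted p all 5 members and 20.9% of all genes were under 0.05 there and 3 members were called by DESeq2, while at 50 mGy/h 3 members and 21.2% of all genes were under 0.05 and DESeq2 called no member. Without replicate 1 of 50 mGy/h at 24 hpf, 3 and 5 members were called at 5 mGy/h (48 and 96 hpf), among 218 and 3181 genes called in all, and 4 and 5 members at 50 mGy/h, among 245 and 2292 genes. No other pool was left out of the interaction fits, so their dependence on the 96 hpf controls was not examined.

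In unexposed animals her4 was lower at later stages. In batch I17, 3 members were called lower at 48 than at 24 hpf (10.9% of all genes were called lower). her4.5 had 2.48, 3.09 and 2.88 CPM at 48 hpf, against 8.38, 10.6 and 9.60 CPM at 24 hpf (3.44-fold lower, -1.78 ± 0.38, adjusted p = 4.82e-04 in edgeR). her4.2 and her4.3 were called too (-1.64 ± 0.41 and -2.06 ± 0.62), while her4.1 and her4.4 missed the limit (-1.2 ± 0.38 and -0.75 ± 0.29, adjusted p = 0.0131 and 0.0385 in edgeR), and for all 5 the stages did not overlap, being lower at 48 hpf as were 24.1% of all genes tested. Leaving out control replicate 3 at 24 hpf, or replicate 5 or 8 at 48 hpf, left 1 member called. Over all left-out pools, 5182 to 6290 genes were called in all. In batch I10 no member passed between 48 and 24 hpf (log2 fold changes between -0.65 ± 0.21 for her4.5 and -0.06 ± 0.31 for her4.1, with 11.9% of all genes called lower), by unadjusted p 2 members and 52.5% of all genes were under 0.05, and 1 member was called by DESeq2.

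Between 96 and 48 hpf the decline was called for all 5 members in batch I10 and for 4 in batch I17, against 19.7% and 17.9% of all genes called lower. In batch I10 the log2 fold changes lay between -2.68 ± 0.23 for her4.5 and -1.34 ± 0.38 for her4.3. In batch I17 they lay between -3.57 ± 0.53 for her4.5 and -2.40 ± 0.46 for her4.1 among the called members, and her4.3, with 1, 1 and 0 counts at 96 hpf, missed the limit (adjusted p = 0.0158 in edgeR). In batch I17, her4.2 had 0.485, 0.246 and 0.537 CPM at 96 hpf, against 4.44, 5.78 and 3.68 CPM at 48 hpf, a 10.7-fold lower level. Many other her and hey genes were also lower in later controls, with 11 of 19 called lower at 48 against 24 hpf and 12 of 19 at 96 against 48 hpf in batch I17. Neuron markers ran the other way at first, with 20 of 22 called higher at 48 against 24 hpf.

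**Figure D4:**
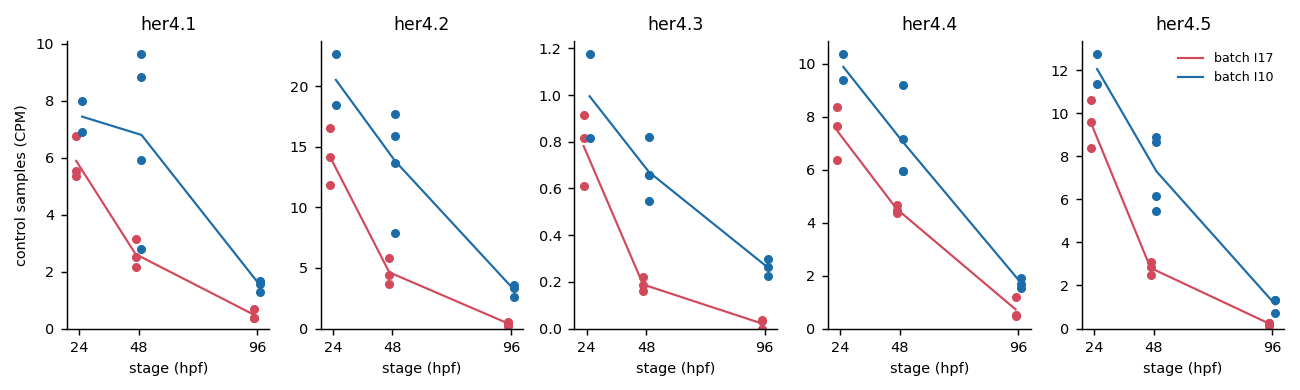
CPM of each her4 member in control pools at 24, 48 and 96 hpf (points) with the mean of each batch (lines), for batches I17 and I10, without the removed pool. In batch I17 her4.5 is at 2.48 to 3.09 CPM at 48 hpf, below the 5.45 to 8.92 CPM of batch I10 at that stage.

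Controls of the same labelled stage differed between batches. At 24 hpf no member was called between batches I17 and I10 (log2 differences between -0.49 and -0.30, with 9.91% of all genes called), by unadjusted p 1 member and 37.1% of all genes were under 0.05, and no member was called by DESeq2. For her4.1, her4.2, her4.4 and her4.5 all controls of batch I17 were below both controls of batch I10, as for 29.0% of all genes tested. At 48 hpf all 5 were called lower in batch I17 than in batch I10, with log2 differences of -1.43 ± 0.33 for her4.1, -1.61 ± 0.24 for her4.2, -1.85 ± 0.35 for her4.3, -0.68 ± 0.17 for her4.4 and -1.42 ± 0.20 for her4.5 (adjusted p between 2.59e-04 and 0.00685 in edgeR; 9.09% of all genes called lower). The summed level was 13.4 to 16.3 CPM in batch I17 and 25.9 to 42.9 CPM in batch I10. Leaving out any of the 7 pools left 2 to 4 members called, with 3 or 2 after leaving out replicate 7 or 8 of batch I17. Over all left-out pools 1380 to 3078 genes were called in all. At 96 hpf, 3 members were called lower in batch I17 (her4.1 -1.66 ± 0.32, her4.2 -2.93 ± 0.29, her4.5 -2.30 ± 0.41, with 18.5% of all genes called in either direction), her4.4 missed the limit (-1.23 ± 0.34, adjusted p = 0.0122 in edgeR), and her4.3 was not tested. In the same comparison of controls at 48 hpf, 5 of 22 neuron markers were called higher and 3 of 9 Notch ligands lower in batch I17, and their part in the her4 difference was not tested.

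her4.3 was nearly missing from batch I32. It had 0 counts in each kept pool at 0.5 mGy/h, against 3, 2, 2, 1 and 0 counts in the kept controls, and at most 3 counts in each of the 4 removed pools, so no fold change with exposure is given. In the 24 hpf pools of batches I17 and I10 it had between 4 and 48 counts. Controls of batch I17 were at 0.816, 0.611 and 0.917 CPM, against 0.0768, 0.0620, 0.0625, 0.0288 and 0 CPM in batch I32. The log2 difference was 3.98 ± 0.47 (adjusted p = 8.51e-06 in edgeR, with 3.83% of all genes called higher), and for batch I32 against batch I10 it was -4.28 ± 0.49 (adjusted p = 1.48e-05 in edgeR, with 6.81% called lower). Each I32 pool was at or under 3 counts, so these fitted sizes depend on very few reads. The other 4 members differed by at most 0.19 on the log2 scale between batches I17 and I32. Over all genes, 145 were called lower in controls of batch I32 than in those of both other batches, 9 of them at least 10-fold in each, and her4.3 ranked at 6 of 19596 genes by the smaller fold. No pool of any batch had reads on the other strand of her4.3, so the other strand does not set batch I32 apart.

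The split of her4 counts among the members moved with batch and stage. her4.3 made up 0% to 0.391% of her4 counts in the 12 pools of batch I32, against 1.46% to 2.86% in batch I17 and 1.74% to 3.09% in batch I10 at 24 hpf. her4.2 held the largest median share at 24 hpf in each batch (40.6% in I32, 36.1% in I17 and 38.3% in I10). her4.4 held a median of 22.6% in 24 hpf pools of batch I17, 29.9% in 48 hpf pools and 33.3% in 96 hpf pools, while her4.5 had 25.9%, 21.5% and 10.7% at these stages. In batch I10 the median of her4.4 showed no such order, with 22.0%, 27.4% and 24.6%. Within the 96 hpf pools of batch I17 its mean share was 37.1% in controls, 29.9% at 5 mGy/h and 20.5% in kept pools at 50 mGy/h, where the removed replicate 9 had 45.35%. The pools of a batch differ in dose rate, so these medians run over exposed and control pools, and a share of uniquely mapped reads also follows how unique each copy is.

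Ordered by the summed level, the 17 groups ran between 50.9 ± 5.69 CPM in 24 hpf controls of batch I10 (SD, n = 2) and 1.88 ± 0.71 CPM in 96 hpf controls of batch I17 (SD, n = 3). Most neighbours in this order overlapped, and only 2 of the 16 steps did not: that below the 24 hpf embryos at 5 mGy/h (13.4 ± 0.56 CPM, n = 3), which were the lowest group before 96 hpf, and that below the 96 hpf larvae at 50 mGy/h (5.56 ± 0.45 CPM, n = 2). The 3 control groups of 24 hpf embryos headed the list with those of batch I10 at 48 hpf next. Member by member, 4 of 16 steps were free of overlap for her4.1 and her4.2, 3 for her4.4 and 2 for her4.5.

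Within groups, her4.1, her4.2 and her4.5 went up and down together. After subtracting each group's mean of log2 CPM, the Pearson r between pairs of these 3 was between 0.73 and 0.82 over 58 pools and 0.92 for each pair over the 26 pools at 24 hpf. Pairs with her4.3 or her4.4 had r between 0.24 and 0.59 over 58 pools and between 0.47 and 0.86 at 24 hpf, and pairs of a member with her2, her12, her15.1 or her15.2 had r between -0.02 and 0.56 and between 0.14 and 0.68 in the same sets of pools. The points share libraries, their scaling and reads of similar sequence, so these are descriptions. The spread between pools of a group depended on the fit. At 24 hpf in batch I17, where the fit holds replicate 1 of 50 mGy/h, the biological coefficient of variation was between 0.25 for her4.4 and 0.46 for her4.3, above that of 81.8% to 99.4% of genes, against 0.15 for her12 and 0.13 for her15.1. At 24 hpf in batch I10 that of her4.2, her4.4 and her4.5 was above 42.2%, 36.8% and 34.8% of genes only. In the same fit that of her4.1 and her4.3 was above 66.2% and 85.4%. In batch I32 at 24 hpf the tested members were above 67.2% to 86.7% of genes. At 48 hpf they were above 57.6% to 95.5% in batch I10 and 45.2% to 86.8% in batch I17. At 96 hpf they were above 42.05% to 88.55% in batch I10 and 82.7% to 91.8% in batch I17.

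The genes whose level over all 58 pools was most like the summed her4 level were hmgn1b (Pearson r = 0.97 of log2 CPM), NUCKS1 (0.96), zgc:110540 (0.96), HMGN2 (0.95) and blvrb (0.95), among 13640 genes whose log2 CPM averaged 1 or more. Over the 26 pools at 24 hpf, with each batch's mean subtracted, they were QDPR (0.91), DDX6 (0.90), ELMOD2 (0.90), NR2F1 (0.89) and CYB5A (0.89), so neither set holds a her gene. her15.2 ranked at 66 and 114 in these orders (r = 0.92 and 0.79), and her12 at 277 and 1480 (r = 0.88 and 0.55). The points share stage, batch and library. hmgn1b, a chromatin protein that binds nucleosomes, averaged 668 CPM at 5 mGy/h and 1036 CPM in controls at 24 hpf in batch I17.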

How the data were processed

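Counts per gene were deposited as STAR gave them: the authors aligned stranded paired-end reads to GRCz11 (Ensembl release 95) and deposited whole-number counts of uniquely mapped reads without normalization, in columns without and with regard to strand. The column of the dominant strand was used. Rows that name no gene, 22.5% to 34.6% of read pairs, were left out of library sizes. Groups came from the sample labels.

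Tests were run on the counts of all genes in R 4.3.3 with edgeR 4.0.16 (filterByExpr with a count of 10 and a total of 15, TMM, quasi-likelihood test), within each stage and batch; stages were compared within a batch, with an interaction term between stage and dose rate for batch I17, and control batches within a stage. A call needed a fold change of 1.5 and a Benjamini-Hochberg adjusted p under 0.01. The SE of a log2 fold change was derived from its F statistic. The 5 and 50 mGy/h groups shared controls and spread. Printed CPM used a joint TMM scaling of the 58 samples.

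The members and the gene lists were chosen with earlier results of these data known. The text names the 5 members, the list genes called in both 24 hpf comparisons of batch I17 (a few of them here), and the 5 genes most like the summed members over all samples and over 24 hpf samples (log2 CPM, prior count 2); her12, her15.1, her15.2 and her2 were followed as other her genes. Gene symbols were found for 28995 of 32057 identifiers, and 2 of 124 list symbols matched no gene.

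Alternatives were DESeq2 1.42.0, edgeR with DESeq2's size factors, all genes kept regardless of counts, an adjusted p of 0.05, counts without regard to strand, all mapped samples, the other reading of the pool removed at 96 hpf, a batch covariate, separate fits, the replicate number as a block and each replicate left out. For the interactions only replicate 1 of 50 mGy/h at 24 hpf was left out. Fits of the interaction, stages and 5 mGy/h without a 50 mGy/h pool were chosen after seeing the data. On simulated data with 200 genes changed 2-fold, 57.5% were called for 5 mGy/h at 24 hpf (18358 genes, 0 false calls) and 82.0% for 0.5 mGy/h in batch I32 (18721 genes, 1 false call). These shares run over all the changed genes and are not shares for the her4 members. In the 24 hpf fit of batch I17 the members varied more between pools than 81.8% to 99.4% of genes. Limits of 3 counts cover counting error only. Tables and figures used Python 3.11.15, pandas 2.3.3 and matplotlib 3.10.9. Sequences of the members were not used here.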

Additional observations from a re-analysis of the deposited data

Results flagged for a closer look

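her4.3 in control replicate 12 of batch I10 at 96 hpf stood far above the other 3 controls of its group, at 0.746 CPM (23 counts) against 0.264, 0.296 and 0.225 CPM (12, 11 and 8 counts). Its gap to the nearest control was 0.863 of the range of the 4 samples. Such a test picks about 1 in 20 groups by chance, and it was the only sample picked in 20 sets of a member in a group. The authors had removed this sample, and its summed her4 level of 8.07 CPM was within the range of the kept controls (7.15 to 8.57 CPM).

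The effect of exposure on her4.2 differed between 96 and 24 hpf in batch I17, by 2.98 ± 0.71 at 5 mGy/h (log2, SE) and by 2.95 ± 0.71 at 50 mGy/h (adjusted p = 0.00456 and 0.00557 in edgeR). At 24 hpf her4.2 was lower in 3 of 3 pools at 5 mGy/h and in 2 of 3 at 50 mGy/h, and at 96 hpf it was above every control in 3 of 3 kept pools at 5 mGy/h and 2 of 2 at 50 mGy/h. Both dose rates share their controls. At 96 hpf these controls had 14, 8 and 22 counts of her4.2 and averaged 0.423 CPM. Exposed pools averaged 1.18 CPM at 5 mGy/h and 2.18 CPM at 50 mGy/h, and controls of batch I10 averaged 3.21 CPM. The removed 50 mGy/h replicate 9, with 27 counts of her4.2, was above every control, while its summed her4 level was within that of controls.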

How the results depend on the processing

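Of 1277 values of single members under other settings, 1146 kept their direction and side of the limits, 71 passed where they had not, 36 no longer passed and 24 changed sign, none of them while called. Counts of members called stayed within 1.5 times (a count of 0 only at 0) in 226 of 274 alternatives. At 24 hpf and 0.5 mGy/h, the 1 member of batch I32 became 2 at an adjusted p of 0.05, 0 with all mapped samples, and 3 with the batch covariate, without a filter or with the replicate number as a block, and the 0 members of batch I10 became 2 with DESeq2. At 5 mGy/h and 24 hpf the 1 member became 4 at an adjusted p of 0.05, 2 with DESeq2, 4 without a filter and 5 in separate fits. The 0 members at 50 mGy/h became 1 at 48 hpf at an adjusted p of 0.05, with DESeq2 or without a filter, and at 96 hpf 2 at an adjusted p of 0.05 and 1 with DESeq2, without a filter or in separate fits. DESeq2 gave 1 for controls at 48 against 24 hpf in batch I10, and 3, 3 and 2 for the interactions at 5 mGy/h (48 and 96 hpf) and 50 mGy/h (96 hpf). The numbers of genes that DESeq2 called in all in that stage comparison and in the interactions are not given here. The cause of these moves was not tested.

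Leaving out replicates gave 0 to 2 members at 24 hpf and 0.5 mGy/h in batch I32, and in batch I10 over exposed replicates. It gave 0 to 5 at 5 mGy/h and 0 to 4 at 50 mGy/h at 24 hpf. At 48 hpf it gave 0 to 2 at 0.5 mGy/h and 0 to 3 at 50 mGy/h. Controls at 48 against 24 hpf in batch I17 had 1 to 4, and controls of batches I17 against I10 at 48 hpf 2 to 4. The interactions had 3, 5, 4 and 5 without 50 mGy/h replicate 1, the only pool left out of them. The genes called in all moved too. At 24 hpf they were 0 to 56 (0.5 mGy/h, batch I32), 196 to 3115 (5 mGy/h) and 171 to 1680 (50 mGy/h). At 48 hpf they were 0 to 345 (0.5 mGy/h) and 8 to 1813 (50 mGy/h). For these stage and batch comparisons of controls they were 5182 to 6290 and 1380 to 3078.

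Signs turned in the following. For 50 against 5 mGy/h at 48 hpf, her4.1 was -0.10 with the replicate block and between -0.28 and 0.34 over left-out replicates, her4.2 was -0.0680 with all mapped samples and between -0.17 and 0.41, and her4.4 was between -0.31 and 0.10. At 24 hpf the same comparison gave -0.15 to 1.28 for her4.2, -0.11 to 1.75 for her4.3 and -0.13 to 0.71 for her4.4. Over left-out replicates, her4.3 at 50 mGy/h and 24 hpf was between -1.84 and 0.0345, her4.1 at 5 mGy/h and 96 hpf between -0.55 and 0.42, her4.1 in controls at 48 against 24 hpf of batch I10 between -0.27 and 0.20, and her4.3 in controls of batch I17 against I10 at 24 hpf between -0.54 and 0.000807. In controls of batch I17 against I32, her4.1 was 0.0164 with all mapped samples and between -0.23 and 0.0415, and her4.5 was 0.0270 and between -0.22 and 0.00987.

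Exposed and control samples of the same number had deviations with correlations between -0.38 and 0.28. The labels do not say what the numbers mean, and groups of so few pools cannot show whether equal numbers had a shared origin. The block is therefore not read as a pairing. No paired analysis was possible at 24 hpf in batch I10 because the groups share 1 number. Under 3 counts her4.3 cannot be read at this depth.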
